A study of Mus musculus with 2 samples.

Results

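The Cd209a Mgl2 dermal dendritic-like cells, here called Cd209a Mgl2 cells, are skin cells that carry RNA of MHC class II and of a small set of dendritic cell genes but little of the macrophage complement genes C1qa, C1qb and C1qc. They were chosen on measured values, from both libraries together and among barcodes in which no fewer than 500 genes and 1000 UMIs were counted and mitochondrial genes took no more than 10% of UMIs. A UMI is a molecular tag that counts each captured RNA molecule once. A member had no UMI of Cd207, at least 2 of the 6 panel genes Cd209a, Mgl2, Ccl17, Klrb1b, Il7r and Ramp3, and at least 50 UMIs of H2-Aa, H2-Ab1 and Cd74 per 10000 UMIs. It also had under 15 UMIs of the 3 C1q genes per 10000, at most 1 of Dcstamp, Cd226, Cd2 and Upb1, and not both of Ly6c2 and Plac8. The rule found 451 members among 3797 filtered cells, or 11.9% (exact Clopper-Pearson 95% interval 10.9 to 12.9), and among 5257 deposited barcodes.

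The cells came from shaved dorsal skin of male mice of WT genotype, aged 9 week in a group called young and 108 week in the other group. Skin of 2 mice was pooled for each age, digested with collagenase-A, Dispase-II and DNaseI, and sorted for F4/80, a surface marker of macrophages, and for high MHC class II. Each age gave 1 droplet library with 3′ chemistry, so there was no replicate of an age and no test was possible. The libraries were told apart by a barcode suffix, 1 or 2, which no label ties to an age; ages were therefore not compared, and the suffixes stand for libraries of unknown age that differ in both age and animals. All samples carried the label macrophage, although the sort could also pass dendritic cells, and 762 filtered cells with much collagen RNA and little MHC class II passed it too.

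Dendritic cells take up antigen in the tissue, load peptides onto MHC class II and carry them to lymph nodes, where they show them to T cells. Classical dendritic cells grow under the receptor Flt3 and express the transcription factor Zbtb46, which most macrophages lack, and they fall into type 1 cells that depend on Irf8 and Batf3 and type 2 cells that depend largely on Irf4 and Klf4. In mouse dermis, a type 2 population is known for the lectin CD301b, the product of Mgl2, and for Cd209a, a mouse relative of the human lectin DC-SIGN. Cells that mature raise the chemokine receptor Ccr7, which guides them into lymph vessels.

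The library with suffix 1 gave 327 members, 13.6% of its 2396 filtered cells (12.3 to 15.1), and the library with suffix 2 gave 124, 8.85% of 1401 (7.42 to 10.5). Among filtered cells that met the limit on MHC class II the order was the other way round, with 20.9% of 1567 cells (18.9 to 23.0) against 27.6% of 449 cells (23.5 to 32.0). The collagen-rich cells, which made up 273 of the filtered cells with suffix 1 and 489 of those with suffix 2, enter the first share and not the second. Members held a median of 13969 UMIs (1278 to 46847) and 2847 genes, with a median of 13564 UMIs in the library with suffix 1 and 14813 in that with suffix 2. Their 6381969 UMIs were summed per gene and are given per 1000000 UMIs of the class (CPM), in both libraries together unless a library is named. Intervals are 95% intervals for counting error alone, since cells of 1 library are not replicates.

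Of the values that chose the cells, MHC class II ran from 54.9 to 1663 UMIs per 10000 with a median of 764, and C1q had a median of 0 and reached 14.6. Few cells lay near these limits. Among cells that met the rest of the rule, 432 had under 5 UMIs of C1q per 10000, 19 had 5 to 15, 22 had 15 to 30 and 508 had more. For MHC class II, 2 cells lay between 25 and 50 per 10000 and 2 between 50 and 100, against 42 below and 449 above. The step from 1 to 2 panel genes was less empty, with 33 cells that had 1 panel gene and 55 that had 2. The cells that failed exactly 1 condition numbered 30 for Cd207, 81 for the panel, 44 for MHC class II, 530 for C1q, 183 for the Dcstamp set and 42 for Ly6c2 with Plac8.

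**Figure D1:**
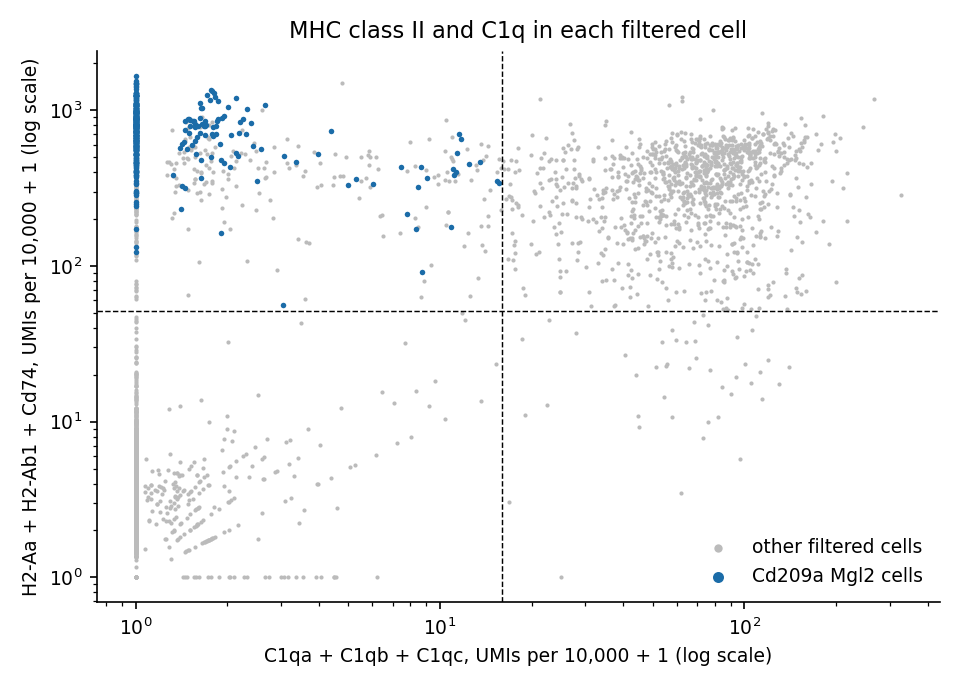
Each point is a filtered cell, with UMIs of C1qa, C1qb and C1qc per 10,000 plus 1 on the horizontal log axis and UMIs of H2-Aa, H2-Ab1 and Cd74 per 10,000 plus 1 on the vertical log axis. The 451 Cd209a Mgl2 cells fill the corner with high MHC class II and low C1q, which is what the rule asked for.

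Most members carried several panel genes. Mgl2 was detected in 413 members (91.6%), Cd209a in 407 (90.2%), Il7r, the receptor chain for interleukin-7, in 341 (75.6%), Klrb1b, a lectin-like receptor, in 317 (70.3%) and Ramp3, a partner of calcitonin family receptors, in 308 (68.3%). Ccl17, a chemokine that attracts T cells through Ccr4, was detected in 49 members (10.9%), although it is among the genes that name these cells. The most common combination was all of the panel except Ccl17, in 148 members (32.8%), and 30 members had all 6 genes. Mgl2 stood at 1647 CPM (1612 and 1731 in the libraries with suffix 1 and 2), Cd209a at 1118 (1136 and 1075) and Il7r at 367 (351 and 405). Ramp3 stood at 317 (296 and 368), Klrb1b at 281 (295 and 249) and Ccl17 at 62.4 (50.4 and 91.03). Nearly equal levels in both libraries were seen for Mgl2 and Cd209a, and Ccl17 was the panel gene whose libraries differed most. The 5 members with the most Ccl17 held 47.99% of its UMIs, so its level describes few cells. In GENCODE M21 on GRCm38, the gene Cd209a lies on chromosome 8, 3743397 to 3748984, minus strand, Mgl2 on chromosome 11, 70130329 to 70137550, plus strand, Klrb1b on chromosome 6, 128813706 to 128826331, minus strand and Ccl17 on chromosome 8, 94810453 to 94812036, plus strand.

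Members were set against 3 classes of the same libraries that also met the limit on MHC class II. These were 880 C1q-high cells (15 or more UMIs of C1q per 10000), 49 cells with Cd207, the langerin gene of Langerhans cells and some dermal dendritic cells, and 118 cells with both Ly6c2 and Plac8, which mark monocytes. The panel genes were not particular to members. Summed over all 6, they stood at 3793 CPM in members, which they helped to choose, and at 3005 in Cd207 cells. C1q-high cells held 1661 CPM and Ly6c2 Plac8 cells 1007. A gene entered a comparison with at least 20 UMIs in both classes together in each library. It was called higher or lower when its CPM differed at least 2-fold in the same direction in each library, with counts under 3 set to 3. Against C1q-high cells, 441 of 8241 genes were higher (5.35%) and 822 were lower (9.97%), with a median log2 ratio of -0.11 over all genes. Against Cd207 cells, 51 of 6572 genes were higher (0.776%) and 52 were lower (0.791%). Against Ly6c2 Plac8 cells, 120 of 6945 genes were higher (1.73%) and 392 were lower (5.64%). That last split depended on the scale, since a median-of-ratios scaling between the classes gave 230 higher and 258 lower genes. The rule itself used C1q, Cd207, Ly6c2 and Plac8, so that counts over these comparisons describe how the classes differ and nothing is read from their size.

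The general genes of classical dendritic cells went with the name given to the cells. Of 11 such genes, all tested, 7 were higher in members than in C1q-high cells and none was lower, with a median log2 ratio of 2.90. Flt3, the growth factor receptor of classical dendritic cells (GRCm38, chromosome 5, 147330741 to 147400489, minus strand), stood at 81.5 CPM (74.6 to 88.8), with 75.5 and 95.8 in the libraries with suffix 1 and 2, against 2.96 CPM in C1q-high cells. Its log2 ratio was 4.78 (4.20 to 5.42). Zbtb46, their transcription factor, stood at 54.8 CPM (51.5 and 62.8 by library) against 4.38, a log2 ratio of 3.65 (3.15 to 4.18). Both genes were higher in each library, and neither library's level in members overlapped that of C1q-high cells. Itgax, the CD11c integrin chain, stood at 83.99 CPM against 14.1 and Dpp4, the surface peptidase CD26, at 38.5 against 3.32. The adhesion molecule Jaml, the inhibitory receptor Btla and the transcription factor Bcl11a were the other called genes, at 37.9, 9.71 and 24.9 CPM. Not called were Id2 (596 CPM against 932), Spi1 (461 against 471), Relb and Kmo, the first 2 of which macrophages use as well.

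Against the other 2 classes few of these genes were called. None of the 11 was called against Cd207 cells, where Flt3 stood at 72.2 CPM and Zbtb46 at 47.8. Btla and Kmo had too few UMIs in members of suffix 2 for a higher call to be possible there. Zbtb46 alone was higher than in Ly6c2 Plac8 cells (22.4 CPM), where Flt3 stood at 51.03 CPM, a log2 ratio of 0.68 (0.35 to 1.01). A UMI of Flt3 was found in 52.3% of members at full depth and in 12.7% (9.74 to 16.1) of the 450 members thinned to 2000 UMIs each, against 0% of 716 collagen-rich cells thinned alike. For Zbtb46 these shares were 44.6%, 9.33% and 1.40%. The collagen-rich cells should lack both genes, and their median depth of 13046.5 UMIs was close to that of the members. Shares of other genes given after thinning follow the same order.

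**Figure D2:**
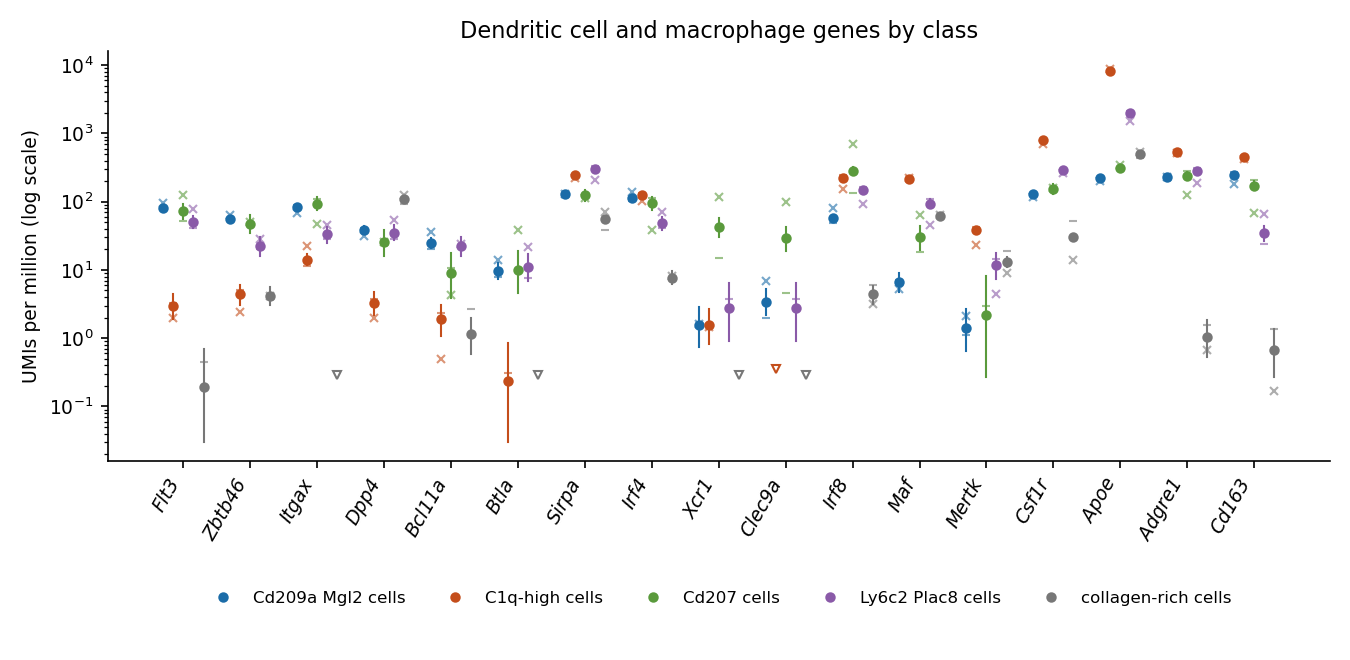
Levels of lineage genes in CPM on a log axis, with exact 95% intervals for counting error. Shown are Cd209a Mgl2 cells, C1q-high cells, Cd207 cells, Ly6c2 Plac8 cells and collagen-rich cells. Flt3 and Zbtb46 are high in Cd209a Mgl2 cells (81.5 and 54.8) and low in C1q-high cells (2.96 and 4.38), and Maf and Apoe run the other way.

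The list for type 2 cells gave no such picture. Of its 12 genes 11 were tested, and against C1q-high cells 1 was higher, 3 were lower and the median log2 ratio was -0.50. The higher gene was Cd7, an immunoglobulin-family receptor known on lymphocytes and on some dendritic cells, at 53.1 CPM (42.6 and 78.3 by library) against 2.61, and it was also higher than in Cd207 cells (13.3). Clec10a, a galactose-binding lectin encoded beside Mgl2, was lower, at 146 CPM against 716, as were the integrin chain Itgam (89.2 against 197) and Notch2 (43.9 against 94.3). Tnip3, an inhibitor of NF-kappa B signalling, was the list's highest gene at 992 CPM and was not called (418 in C1q-high cells). The transcription factors Klf4 and Irf4 stood at 559 and 113 CPM against 791 and 127, and neither was called. Sirpa, the receptor for CD47, stood at 129.7 CPM against 243. The type 2 list thus did not separate members from C1q-high cells, whereas the general dendritic cell genes did.

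Of 10 type 1 genes 4 had enough UMIs for a call. Against Cd207 cells, Irf8 and the adhesion molecule Cadm1 were lower in members. Against C1q-high cells Cadm1 was higher and none was lower, and against Ly6c2 Plac8 cells none was called. Irf8, on which type 1 cells depend, stood at 57.8 CPM (47.96 and 81.4 by library) against 283 in Cd207 cells, a log2 ratio of -2.29 (-2.53 to -2.06). In members 67 cells held all of it and the top 5 held 49.9%. Xcr1, the chemokine receptor of type 1 cells, and Clec9a, their receptor for dead cells, stood at 1.57 and 3.45 CPM against 42.2 and 28.9 in Cd207 cells, with too few UMIs for a call. Cytokine subunit Il12b, which type 1 cells make, stood at 1.57 against 137 CPM, likewise without a call. Of 6 genes of plasmacytoid dendritic cells, Siglech and Ccr9 stood at 1.25 and 1.41 CPM, Klk1 had no UMI, and the interferon-induced gene Bst2 led at 104. For Langerhans cells, Cldn1 and Cdh1, which encode junction proteins, were higher than in C1q-high cells at 28.5 and 11.8 CPM, whereas Epcam stood at 8.30. Cd207 cells held 71.1 CPM of Cldn1, 16.7 of Cdh1 and 36.7 of Epcam. Between them and the members Cldn1 and Cdh1 were not called, and Epcam had too few UMIs for a call.

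Genes of antigen presentation through MHC class II were among the most abundant in members, a 3′ UMI count being 1 per molecule whatever the gene's length. Cd74, the invariant chain that guards the peptide groove, was their most abundant gene at 43339 CPM, and the chains H2-Ab1, H2-Aa and H2-Eb1 ranked 3, 4 and 5 at 16081, 15689 and 14441. The rule used the first 3 of these 4 genes, but not H2-Eb1. H2-Eb1 stood at 13757 and 16079 CPM in the libraries with suffix 1 and 2 and at 8249.5 in C1q-high cells, a log2 ratio of 0.81 (0.79 to 0.82) that was under the limit for a call. Over the 11 class II genes that the rule did not use, 5 were higher than in C1q-high cells, 1 was lower and the median log2 ratio was 1.05.

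Among the 5 higher genes were 3 that edit or tune peptide loading, where H2-DM exchanges peptides in the groove and H2-O restrains it. H2-Oa stood at 70.04 CPM (67.9 and 75.1 by library) against 1.66 in C1q-high cells, a log2 ratio of 5.40 (4.64 to 6.28). H2-Ob stood at 67.1 CPM (60.6 and 82.5) against 8.17, a ratio of 3.04 (2.67 to 3.43). Both chains of H2-O were higher in each library. H2-DMb2 stood at 154 CPM (141 and 184) against 15.5, a ratio of 3.31 (3.04 to 3.58). The other H2-DM genes, H2-DMa and H2-DMb1, were not called, at 891 and 969 CPM against 522 and 632. H2-DMb1 and H2-DMb2 are close copies, and the treatment of reads that match both is not stated. A UMI of H2-Oa was found in 45.5% of members and, after thinning, in 14.4% of members and 0% of collagen-rich cells.

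Other genes of the pathway went both ways. Ifi30, a thiol reductase of the lysosome that unfolds antigens, was higher at 943 CPM against 298, and H2-Eb2 was higher at 9.87 against 2.72. The ratio of H2-Eb2 turned to -0.91 without the members that had a UMI of Ccr7. Lgmn, a lysosomal protease, was the gene that was lower, at 138 CPM (148 and 112 by library) against 1231, a log2 ratio of -3.16 (-3.26 to -3.06). Ctss, the protease that trims the invariant chain, stood at 1050.5 against 1046 and Ciita, the master activator of class II genes, at 54.4 against 26.3, and neither was called. Against Ly6c2 Plac8 cells the same 3 genes H2-DMb2, H2-Oa and H2-Ob were higher, with log2 ratios of 1.87, 2.72 and 1.58, and Lgmn was lower at -3.24. None of the 11 was called against Cd207 cells, where H2-Oa stood at 45.6 CPM and H2-Ob at 69.99. H2-Eb2 had too few UMIs in members of suffix 2 for a higher call to be possible there.

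**Figure D3:**
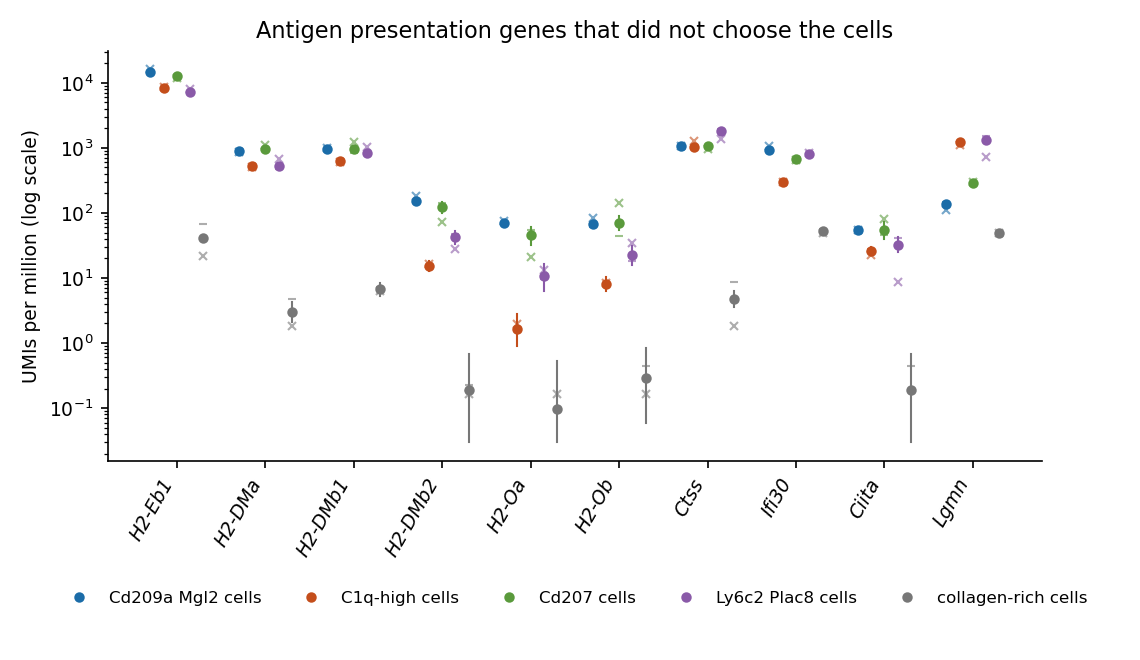
Levels of genes of MHC class II presentation in CPM on a log axis, by class of cell, with exact 95% intervals for counting error. H2-Oa, H2-Ob and H2-DMb2 stand apart between Cd209a Mgl2 cells (70.04, 67.1 and 154) and C1q-high cells (1.66, 8.17 and 15.5). H2-Eb1 is high in every class except the collagen-rich cells, which are drawn too. In those, all 14 measured genes of the class II list summed to 333 CPM.

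The promoters of class II genes share a short stretch of DNA boxes, one of which, the Y box, binds the factor NF-Y and has the core TGATTGG on the sense strand. RefSeq promoters on GRCm38.p6 are shown for the 3 loading genes that were higher and, beside them, for the classical chain H2-Eb1, which was not called. Each is 110 bases on the plus strand of chromosome 17, written 5′ to 3′ and ending at the base before the transcription start, with the Y box core in capitals.
H2-Oa, chr17:34092269-34092378: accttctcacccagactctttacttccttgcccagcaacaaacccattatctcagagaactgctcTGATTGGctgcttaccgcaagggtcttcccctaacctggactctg
H2-Ob, chr17:34238795-34238904: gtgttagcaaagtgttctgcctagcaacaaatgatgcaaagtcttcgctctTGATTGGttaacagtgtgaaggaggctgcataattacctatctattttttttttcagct
H2-DMb2, chr17:34145139-34145248: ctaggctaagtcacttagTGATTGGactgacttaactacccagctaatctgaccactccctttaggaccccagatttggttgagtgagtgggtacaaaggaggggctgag
H2-Eb1, chr17:34305757-34305866: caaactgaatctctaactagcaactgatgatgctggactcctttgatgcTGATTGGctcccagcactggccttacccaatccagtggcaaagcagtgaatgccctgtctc
The core began 45 bases before the start in H2-Oa, 59 in H2-Ob, 92 in H2-DMb2 and 61 in H2-Eb1. Searched on both strands over the 250 bases before the start, TGATTGG was found in a promoter of 7 of 8 class II genes of the H2 family with an entry and in 2375 of all 32851 promoters (7.23%). The gene without it was H2-DMa. It was found in none of the promoters of Ctss, Ifi30, Lgmn and Marchf1. The motif is thus common to class II genes that were called and those that were not, such as H2-Eb1 and H2-DMb1. A match is a description of these letters and not a measured site.

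Lectins of the Cd209 family, which bind sugars on microbes and glycoproteins, differed from gene to gene. Of 17 tested lectin genes that the rule did not use, 1 was higher in members than in C1q-high cells and 9 were lower, with a median log2 ratio of -1.26. The higher gene was Cd209e, at 169.5 CPM (150.3 and 216 by library) against 40.98, a log2 ratio of 2.05 (1.87 to 2.23). Cd209d was not called, at 539 CPM against 549. Of its relatives, 3 were lower: Cd209f at 1.25 CPM against 329, Cd209g at 0.940 against 134 and Cd209b at 43.9 against 127. These genes are related in sequence, and reads that match several of them could have been split or dropped in counting. Among the Clec4 genes, Clec4a1 and Clec4a3, which encode receptors of the DCIR group, were lower at 101 and 67.4 CPM against 242 and 165. Clec4b1 and Clec4a2 were not called, at 157 and 119.9 CPM against 133 and 197. Against Ly6c2 Plac8 cells Cd209e and Cd209c were higher (34.8 and 3.36 CPM there), and 5 lectins were lower. Ly75, the uptake receptor DEC-205, was the lectin that was lower than in Cd207 cells, at 5.64 against 18.9 CPM.

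Of 16 cytokine genes, interleukin-1 beta was by far the most abundant in members. Il1b ranked 18 among all genes at 4406 CPM (4781 and 3507 in the libraries with suffix 1 and 2) and was found in 420 of the 451 members. It was higher than in C1q-high cells (1325 CPM), a log2 ratio of 1.73 (1.70 to 1.76) or 1.89 and 1.28 by library. The 5 members with most of it held 4.98% of its UMIs, so the level was spread over the cells. After thinning, 84.7% of members (81.00 to 87.9) had a UMI of it, against 1.26% of collagen-rich cells. Il18, a related cytokine, was higher too, at 66.1 CPM (61.5 and 77.2) against 25.8, a ratio of 1.36 (1.12 to 1.60). Lower than in C1q-high cells were Tnf (49.7 against 155 CPM), Il10 (16.6 against 202), Il1a, Osm and Areg. The regulatory cytokine Tgfb1 and the interleukin-1 antagonist Il1rn stood at 322 and 228 CPM against 403 and 308, and neither was called. Il1b was not called against Cd207 cells (3124 CPM) or Ly6c2 Plac8 cells (1900.4 CPM). Il12a, Il23a and Il27 stood at 0.157, 0.940 and 0.470 CPM in members.

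Chemokine genes were mostly lower than in C1q-high cells, with 2 of 20 higher, 11 lower and a median log2 ratio of -1.67. The monocyte attractants stood furthest apart. Ccl8 stood at 21.2 CPM (26.9 and 7.45 by library) against 4999, a log2 ratio of -7.88 (-8.14 to -7.64). Ccl7 stood at 117 against 3791 CPM, Ccl2 at 126 against 2836 and the neutrophil attractant Cxcl2 at 689.9 against 6405. Even so, over both libraries together Cxcl2 had the highest level of the listed chemokines in members, before Ccl9 at 506 CPM (1294 in C1q-high cells). The libraries did not share this order. In the 407 members with Cd209a, Cxcl2 stood at 870 and 295 CPM in the libraries with suffix 1 and 2. Ccl9 stood at 487 and 519 CPM there. The 2 higher genes were Ccl22, which like Ccl17 signals to Ccr4 on T cells, and the receptor Ccr7. Ccl22 stood at 101 CPM against 0.948 and Ccr7 at 271 (225 and 379.5 by library) against 16.1. A UMI of Ccl22 was found in 60 members, and 5 of them held 59.2% of its UMIs, so its level describes few cells. Ccr7 was found in 95 members, which are described apart further on. The receptor Ccr2 was not called, at 177 CPM against 277.

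Among 22 cytokine receptor genes, 3 were higher than in C1q-high cells and 5 were lower, with a median log2 ratio of -0.01. Csf2rb, the shared beta chain for GM-CSF, interleukin-3 and interleukin-5, was the most abundant receptor of the list at 806 CPM (776 and 879 by library) against 208, a ratio of 1.95 (1.87 to 2.03). Its partner Csf2ra was not called, at 344 against 259 CPM. Il1r2, the decoy receptor that binds interleukin-1 without signalling, stood at 242 CPM (236 and 257) against 13.1, a ratio of 4.20 (3.93 to 4.49). Il1r2 was also higher than in Ly6c2 Plac8 cells (80.2 CPM). Collagen-rich cells held 401 CPM of Il1r2, so it is not a gene of dendritic cells alone. The macrophage growth factor receptor Csf1r was lower, at 129 against 804 CPM, and so were both chains of the TGF-beta receptor (Tgfbr1 12.2 against 30.6, Tgfbr2 17.7 against 131), Csf3r and Il4ra. Crlf2, the receptor chain for TSLP, stood at 142 CPM against 104 and was not called.

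Ramp3, on the panel, encodes a protein that sets the ligand preference of calcitonin family receptors, which bind adrenomedullin and CGRP. The rest of that family was looked at for this reason. Ramp1, which turns the receptor Calcrl into a CGRP receptor, was higher than in C1q-high cells at 108 CPM (115 and 90.5 by library) against 24.8, a ratio of 2.12 (1.90 to 2.35). Calcrl itself stood at 5.80 CPM against 11.3, Ramp2 at 7.21 against 9.12 and Calcr at 0.783 (5 UMIs).

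Of 18 lineage transcription factors, Zbtb46, Runx3 and Ahr were higher than in C1q-high cells and Maf and Cebpb were among the lower genes. Runx3, a factor of Langerhans cells and of some dendritic and T cells, stood at 168 CPM (179.6 and 142 by library) against 36.01, a ratio of 2.23 (2.04 to 2.41). Ahr, a sensor of small aromatic molecules, stood at 279 CPM (286 and 262) against 119, a ratio of 1.23 (1.11 to 1.34), and was also higher than in Ly6c2 Plac8 cells (105 CPM). Maf, a factor that many macrophages need, stood at 6.58 CPM (7.11 and 5.32) against 218, a ratio of -5.05 (-5.53 to -4.61), and Cebpb at 871 against 2795. The factor Zeb2, common to myeloid cells, stood at 549 CPM against 848 and Tcf4 at 223 against 229, and neither was called. Collagen-rich cells also held Tcf4 (321 CPM), Klf4 (1778) and Cebpb (1771).

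Macrophage genes were lower than in C1q-high cells. Of 16 genes that the rule did not use, 13 were lower, none was higher and the median log2 ratio was -2.97. Apoe, the lipid carrier, stood at 222 CPM (230.5 and 201 by library) against 8320.4, a log2 ratio of -5.23 (-5.31 to -5.15). Mertk, which takes up dying cells, stood at 1.41 CPM against 38.3, Folr2 at 4.07 against 441 and Lyve1 at 0.627 against 89.4. Other genes of the macrophage list were less far apart. Lyz2, lysozyme, stood at 5783 CPM against 7509, Cd68 at 267 against 531 and Cd163, a scavenger receptor for haemoglobin, at 243 against 452, and none of the 3 was called. Adgre1, which encodes F4/80, the marker of the sort, was lower at 231 CPM (231 and 230.0) against 526 but was found in 81.6% of members (37.3% after thinning, against 0.140% of collagen-rich cells). Mrc1, the mannose receptor, was lower at 484 against 1654 CPM, and Cd14 at 718 against 2209. Summed over the macrophage list, members held 8289 CPM (8621 and 7493 by library) and C1q-high cells 33072.

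Fc and scavenger receptors followed the macrophage genes, with 8 of 13 lower than in C1q-high cells and a median log2 ratio of -1.77. Lower were the high-affinity IgG receptor Fcgr1 (15.04 against 113 CPM), Fcgr3 (132 against 421), the lipid receptor Cd36 and the receptor kinase Axl, among others. The inhibitory receptor Fcgr2b and the signalling chain Fcer1g were not called, at 352 and 1421 CPM against 524 and 1839. The higher genes were Timd4, a receptor for phosphatidylserine on dying cells, and Marco, which binds particles and bacteria. Timd4 stood at 87.7 CPM (77.5 and 112 by library) against 26.7, a ratio of 1.72 (1.49 to 1.95), and it was higher than in Ly6c2 Plac8 cells too (24.7 CPM). Marco stood at 15.8 CPM (13.99 and 20.2) against 0.355, with 3 UMIs in all C1q-high cells and a ratio of 5.48 (3.89 to 7.78). Its UMIs came from 39 members.

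**Figure D4:**
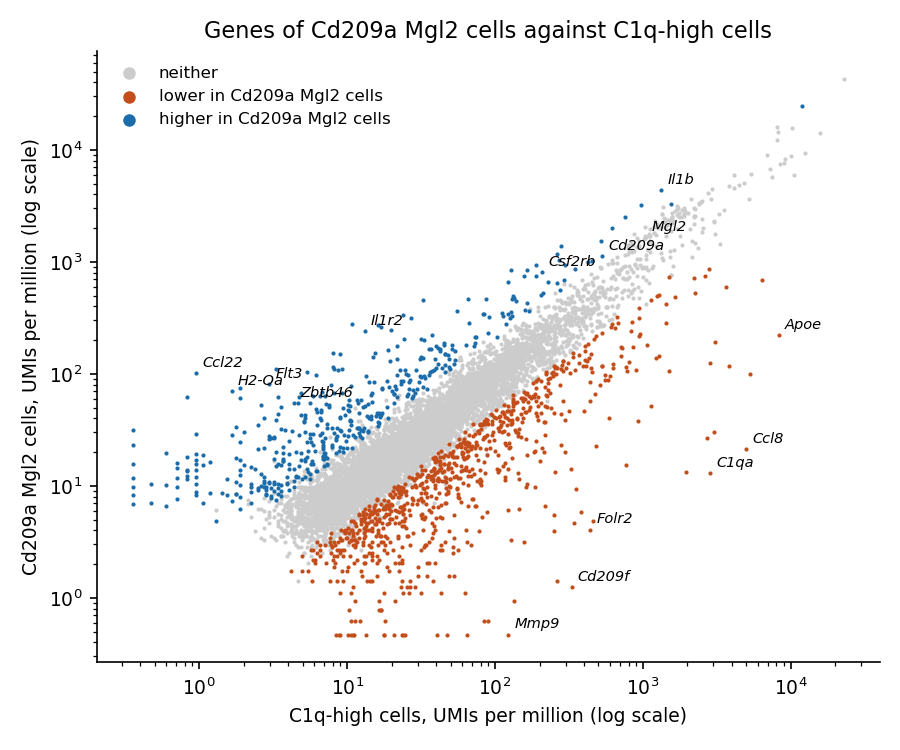
Each point is a gene tested between Cd209a Mgl2 cells and C1q-high cells, with CPM in C1q-high cells on the horizontal log axis and in Cd209a Mgl2 cells on the vertical log axis, counts under 3 being drawn at 3. The 441 genes called higher lie above the diagonal and the 822 called lower lie below it, and the called genes are a small part of 8241.

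The 8 genes with the largest ratio over C1q-high cells, among called genes with at least 100 UMIs in members, were Apol7c, Ccl22, Fcer2a, Marco, H2-Oa, Il4i1, Slc27a3 and H2-M2. Several rested on few cells. Apol7c stood at 23.3 CPM against 0.118 (1 UMI, ratio 7.62, 5.12 to 12.94), and 7 members held all of it. Fcer2a, the low-affinity IgE receptor CD23, stood at 31.5 CPM (31.8 and 30.9 by library) against 0.355 (3 UMIs, ratio 6.47, 4.90 to 8.76), and 5 of the 22 members with a UMI held 69.2%. H2-M2, a class I-like gene, stood at 19.6 CPM against 0.592, and 5 of 23 members held 70.4%. Slc27a3, of the fatty acid transport family, was the most abundant of the 8 over both libraries together. It stood at 110 CPM against 3.32, a ratio of 5.05 (4.51 to 5.65). By library it stood at 132 and 58.02 CPM, and with suffix 2 alone H2-Oa stood higher. The largest ratios the other way belonged to Mmp9, Pla2g2d, Cd209f, C6, Ccl8, Ccl12, Mmp13 and Cd209g. Mmp9 and Mmp13, which digest matrix, and the complement gene C6 each had 1 UMI in all members, against 123, 24.8 and 40.6 CPM in C1q-high cells, with log2 ratios of -9.61 (-14.92 to -7.13), -7.30 (-12.61 to -4.81) and -8.02 (-13.33 to -5.53).

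The fewest genes were called against Cd207 cells, which were also the smallest class. These 49 cells, 37 in the library with suffix 1 and 12 in that with suffix 2, held 900073 UMIs, which limits what could be called. As counts under 3 were set to 3, a gene with few UMIs in members of suffix 2 could be called lower but not higher. Besides Irf8, Cadm1 and Ly75, the genes that were lower in members included Fcgr1, Maf and the chemokine receptor Ccr1, at 15.04, 6.58 and 10.3 CPM, with log2 ratios of -1.73, -2.19 and -2.14. The last 3 turned the other way, to log2 ratios of 1.85, 2.48 and 1.68, when the rule was applied to cells thinned to 2000 UMIs, which left 28 Cd207 cells. The genes with the largest ratios were Fscn1, Mucl1, Rbp4, Trbc1, Mmp2, Col1a2, Dusp14 and Aebp1 for higher, and Irf8 and Ly6a for lower. Without the 5 members that held 50 or more UMIs of Col1a1, Col1a2 and Dcn per 10000, the log2 ratio of Col1a2 went from 4.29 to 1.05, that of Mmp2 from 4.31 to 1.78 and that of Aebp1 from 3.73 to 0.59. Among the others, Rbp4, a carrier of retinol, stood at 43.7 CPM (34.4 and 66.01 by library) in 71 members against 1.11 (1 UMI, ratio 5.30, 2.81 to 10.61). Trbc1, a constant segment of the T cell receptor beta chain, stood at 33.8 CPM (35.5 and 29.8) in 51 members against 1.11 (1 UMI, ratio 4.93, 2.44 to 10.24). Ly6a, the surface antigen Sca-1, stood at 36.7 against 116 CPM, and its ratio turned to 2.69 under the thinned rule. The chemokines Ccl4 and Ccl5 and the growth factor Areg were higher, at 174, 93.9 and 45.6 CPM against 40.00, 25.6 and 17.8. For Ccl5, 5 of 39 members held 70.1% of the UMIs.

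Monocyte genes set Ly6c2 Plac8 cells apart from members. All 6 tested monocyte genes were lower in members, with a median log2 ratio of -3.47 beside a shift of -0.34 and -0.25 in the libraries with suffix 1 and 2 that a median-of-ratios scaling would remove. Ccr2, which brings monocytes into tissue, stood at 177 CPM (197 and 128 by library) against 516, a ratio of -1.55 (-1.67 to -1.42). The chitinase-like gene Chil3 stood at 2.19 against 88.04 CPM and the proteoglycan Vcan at 5.95 against 37.01. Among the 8 largest ratios to the lower side were 4 genes that interferon induces, Irf7, Ifit3, Slfn1 and Slfn4. Irf7, a transcription factor of the interferon response, stood at 18.02 CPM (21.98 and 8.52) against 569, a ratio of -4.98 (-5.27 to -4.70). The other 4 were Chil3, the complement factor Cfb (2.98 against 138 CPM), the mast cell protease Mcpt4 and the antibody light chain Igkc. Mcpt4 (1 UMI in members) and Igkc (0 UMIs) belong to mast cells and B cells, and the Ly6c2 Plac8 cells held 205 CPM over the mast cell list against 0.627 in members. The ratio of Igkc turned to 0.80 under the thinned rule.

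On the higher side, the largest ratios over Ly6c2 Plac8 cells belonged to Fcer2a, Mucl1, Clec4g, H2-M2, Aqp3, Fndc4, Bckdhb and Pgf. Clec4g, a lectin, stood at 32.3 CPM (19.1 and 63.9 by library) against 2.24 and Pgf, placental growth factor, at 63.3 (55.5 and 81.98) against 6.73. Aqp3, a channel for water and glycerol, stood at 28.99 CPM against 2.80 and Bckdhb, a subunit of the enzyme that breaks down branched-chain amino acids, at 63.1 against 6.17. All 4 were also higher than in C1q-high cells, at 3.55, 5.92, 0.948 and 6.51 CPM there. H2-M2 had no UMI in Ly6c2 Plac8 cells. With that count set to 3 its log2 ratio was 3.54, and the lower limit of its counting interval was 3.22. Of 13 tested macrophage genes 7 were lower in members than in Ly6c2 Plac8 cells, Apoe (2001 CPM there) and Csf1r (294) among them, and Cd163 was higher (243 against 34.8 CPM). Pdcd1lg2, the second ligand of PD-1, was higher at 27.3 against 4.49 CPM.

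A UMI of Ccr7 was found in 95 members (21.1%, 17.4 to 25.1), 58 in the library with suffix 1 and 37 in that with suffix 2. After thinning the share was 13.1% (10.1 to 16.6), against 0.140% of collagen-rich cells. This split was chosen after the values had been seen, and the median depth was 15949 UMIs in the 95 cells and 13361.5 in the other 356. Of 6213 genes tested between them, 89 were higher in the Ccr7 members (1.43%) and 254 were lower (4.09%). Of 14 tested genes of mature dendritic cells besides Ccr7, 9 were higher, none was lower and the median log2 ratio was 1.76 beside -0.11 over all tested genes. Fscn1, fascin, which bundles actin in the long processes of mature cells, stood at 178 CPM (189 and 161 by library) against 7.05, a log2 ratio of 4.65 (4.14 to 5.21). Ccl22 stood at 369 CPM (349.8 and 396) against 14.3, a ratio of 4.69 (4.33 to 5.07). The amino acid oxidase Il4i1 stood at 286 against 6.64 CPM, the cytokine signalling inhibitor Socs2 at 76.9 against 5.81 and the PD-1 ligand Cd274 at 163 against 60.3. Cd40, the receptor through which T cells act on dendritic cells, stood at 171 CPM (192 and 139) against 54.95. The costimulatory genes Cd83, Cd80 and Cd86 were not called, at 1254, 203 and 362 CPM against 763, 96.4 and 317.

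Much of this RNA lay in few cells. Fscn1 was found in 42 members and Cacnb3, a calcium channel subunit of mature dendritic cells, in 21, and the top 5 members held 63.3% and 61.4% of their UMIs. Both genes were found together in 11 members, 7 and 4 by library, and each of the 11 had Ccr7 and lacked Cd209a. Among the 880 C1q-high cells both were found in 3, among the 49 Cd207 cells in 0 and among the 762 collagen-rich cells in 29. Not called were the classical class II chain H2-Eb1, at 14674 CPM against 14365, and Flt3 and Zbtb46 (103 against 74.4 and 68.6 against 50.4 CPM). Timd4 was higher at 217 against 46.04 CPM, and Ccl5 at 326 against 18.7. Tbc1d4 and Samsn1, which act in vesicle transport and in lymphocyte signalling, also stood among the 8 largest ratios, at 280.2 against 20.95 and 526 against 69.4 CPM without the 5 collagen-bearing members. To the lower side the 8 largest ratios, without those 5 members, belonged to Mucl1, Gpihbp1, Cd36, Cxcl12, Fcer2a, Fabp4, Mgll and Ly6c1. Gpihbp1 and Fabp4, known from capillaries and fat, again rested on few cells, as 5 members held 94.2% and 91.5% of their UMIs. Cd36 stood at 4.49 CPM (4.32 and 4.74 by library) against 127 in all 356 cells. The 4 tested fibroblast genes and the endothelial genes Cdh5 and Kdr were lower as well, and the 5 collagen-bearing members, without which no fibroblast gene was called, all lacked Ccr7. Against C1q-high cells, the log2 ratios of Cacnb3 and Socs2 turned to -1.19 and -0.45 when the members with Ccr7 were left out, and those of Il4i1 and Ccl5 against Cd207 cells turned to -1.51 and -0.45.

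Genes that respond to tissue digestion ran against Ccr7. Of 9 such genes 8 were lower in the Ccr7 members, with a median log2 ratio of -1.91. Fos stood at 292 CPM (365 and 186 by library) against 877 (839 and 985), Fosb at 96.8 against 521 and the heat shock gene Hspa1a at 25.6 against 343. Klf4, a further early response gene besides its part in type 2 cells, stood at 155 CPM against 689.5. The part of digestion in the differences between these members was not tested. Over all members, the 9 genes summed to 3581 CPM (3575 and 3595 by library) against 7109 in C1q-high cells, of which Fosb, Jun, Egr1 and Atf3 were lower in members. Against Ly6c2 Plac8 cells Hspa1a and Hspa1b, which are near-identical copies, were higher, at 265 and 171 CPM, with log2 ratios of 2.15 and 1.22.

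**Figure D5:**
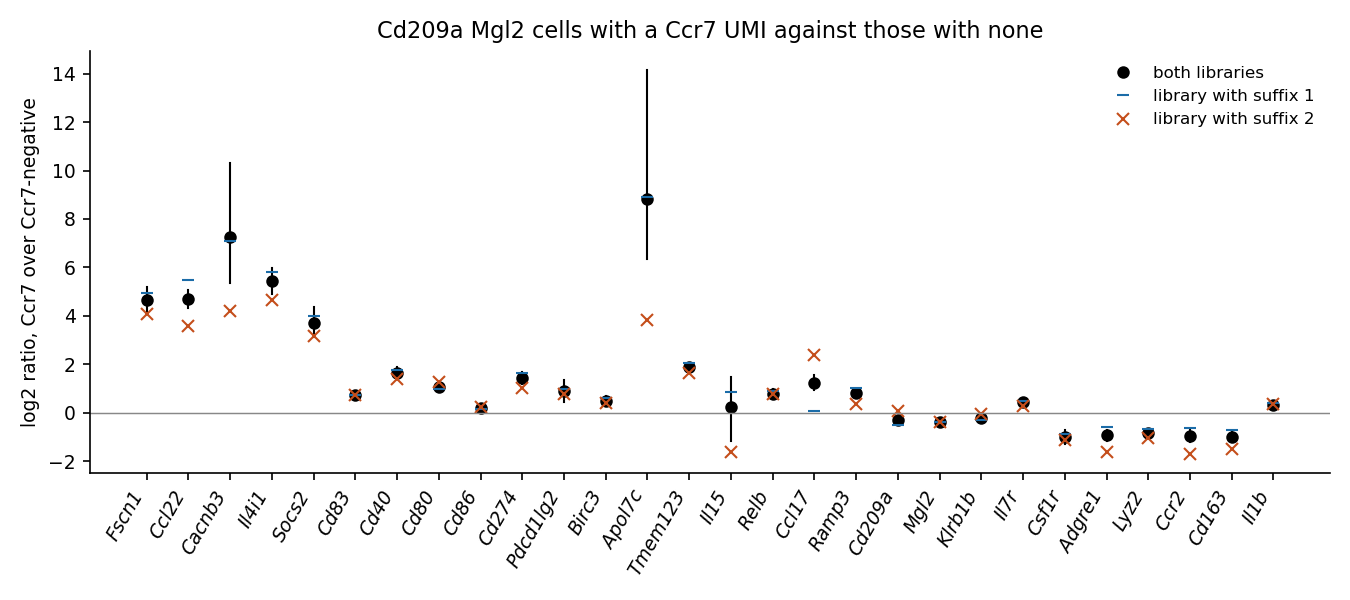
Log2 ratio of CPM in the 95 members with a Ccr7 UMI over the 356 with none, by gene, as a black point with its exact 95% interval for both libraries together and coloured marks for each library. Fscn1 (4.65) and Ccl22 (4.69) lie above 0 in both libraries, and Ccr2 (-0.97) and Lyz2 (-0.82) lie below 0 in both.

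The 44 members without a UMI of Cd209a (9.76%), 31 and 13 by library, entered on other panel genes. They held 1359.7 CPM of Ccr7 against 165 in the 407 members with Cd209a, and 474 CPM of Fscn1 against 7.56. The type 1 gene Irf8 stood at 339 CPM (285 and 487 by library) against 30.6, and Clec9a, with 11 UMIs on each side, at 19.5 against 1.89. Mgl2 stood at 467 CPM against 1761, Cd163 at 79.9 against 258 and Mrc1 at 129.6 against 518. The split is by a gene of the rule, so these values are a description only.

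More members than C1q-high cells carried RNA of dividing cells. Of 10 cell cycle genes 5 were tested and all 5 were higher, with a median log2 ratio of 2.40. Mki67, the proliferation antigen Ki-67, stood at 53.3 CPM (59.1 and 39.4 by library) against 10.1, a ratio of 2.40 (2.06 to 2.76), and Top2a, which untangles DNA, at 24.8 against 5.69. At least 3 of the 10 genes were found in 21 members (4.66%, 2.91 to 7.03), 18 and 3 by library, against 3 C1q-high cells (0.341%), whose median depth of 9076.5 UMIs was lower. After thinning these shares were 2% of 450 members (0.919 to 3.76) and 0.118% of 846 C1q-high cells (0.00299 to 0.657). None of 762 collagen-rich cells had 3, which allows up to 0.394% by a limit of 3 counts and 0.483% by the exact interval. None of the 5 genes was called against Cd207 cells. There Top2a, Birc5, Tyms and Pclaf had too few UMIs in members of suffix 2 for a higher call to be possible. Rrm2, an enzyme of DNA building block synthesis, was the gene that was lower than in Ly6c2 Plac8 cells (7.05 against 24.1 CPM).

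RNA of other cell types was measured for each list. Fibroblast genes summed to 2123 CPM in members (2546 and 1108 by library), against 102207 in collagen-rich cells, and Col1a1, Col1a2, Col3a1 and Dcn were higher than in C1q-high and Cd207 cells. These UMIs lay in few cells, since the 5 members with most Col1a1 held 88.9% of it and 1 member alone held 4026 of its 5446 UMIs. At least 50 UMIs of Col1a1, Col1a2 and Dcn per 10000 were found in 5 members, and without them the 4 log2 ratios over C1q-high cells turned to -0.73, -1.01, -0.78 and -0.56. Endothelial genes summed to 50.1 CPM (38.2 and 78.8), with Kdr in 9 members and Cdh5 in 10, and keratinocyte genes to 19.7. T cell and innate lymphocyte genes summed to 15.7 CPM, with no UMI of Cd3e, Cd3g, Nkg7, Klrb1c and Ncr1 among the 10 genes. Trbc2, a constant segment of the T cell receptor beta chain, made up most of that sum at 11.8 CPM in 23 members, and was called higher than in C1q-high cells (log2 ratio 5.63) and Ly6c2 Plac8 cells (2.80). B cell genes summed to 1.10 CPM with no UMI of Ms4a1, and mast cell genes to 0.627 with no UMI of Mcpt8 and Ms4a2. Mucl1, a mucin-like gene of skin glands and the gene with the second largest ratio over Cd207 cells, lay almost whole in 5 of the 12 members with a UMI (96.1%). Doublets were not removed, since the caller Scrublet marked 0 and 6 cells in the libraries with suffix 1 and 2. Of the members, 8 (1.77%) lay in the top 5% of scores of their library, against 39 C1q-high cells (4.43%). The libraries shared 1 barcode sequence among deposited barcodes and 0 among filtered cells.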

How the data were processed

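Single-cell RNA of sorted skin cells was measured in 2 droplet libraries, 1 for each age. The authors deposited UMI counts of 32285 genes in 5257 barcodes as 1 matrix, made with Cell Ranger 4.0.0 and mm10 per the submitters' processing notes, without normalization. No source used here names a filter on cells before deposit. Libraries held 35821853 and 20382748 UMIs. Barcodes were filtered and classes formed as described above in Python 3.11.15 (numpy 2.4.6, scipy 1.17.1), and UMI counts were summed per class and library and divided by the class total. Levels have exact Poisson intervals, shares exact Clopper-Pearson intervals and ratios exact conditional binomial intervals. A count of 0 was set to 3 for the ratio but not for its interval, which then lacks a limit. No p-value was computed. For shares, cells were thinned to 2000 UMIs. Scrublet in scanpy 1.11.5 (seed 1) was run on each library. Of the gene identifiers, 32158 matched GENCODE M21, from which positions were taken. Promoters came from RefSeq.

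The members and the 26 gene lists were chosen with earlier results of these data known. Of 256 listed names 254 were in the matrix; Clec7a and Marchf1 have no value here, and a few listed genes are not reported here. Each list was counted, and the text names up to 4 of its genes with the highest level in members, those whose call differed from most of the list, and the 8 called genes with the largest ratio in each direction. Genes named beyond this, such as those singled out for their role, and the split by Ccr7 or Cd209a were chosen after their values were seen. The calls were tested on simulated data. The 16 alternatives changed the cell filters, the limits of the rule, the library, doublets, weighting, scaling, the UMI minimum and, for shares of cells alone, the thinning, and 2 more were added after the data were seen.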

Additional observations from a re-analysis of the deposited data

Results flagged for a closer look

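Barcodes above the mitochondrial limit of 10% were left out of every comparison, and 37 of these 1149 barcodes met the rest of the rule, 22 in the library with suffix 1 and 15 in that with suffix 2. They stand out as a signal in data that the comparisons did not use. Their median depth was 3420 UMIs and their median mitochondrial share 18.5%, against 13969 UMIs and 4.08% in members. Flt3 stood at 122 CPM (78.0 to 181) and Zbtb46 at 81.2 (46.4 to 132) in them, against 81.5 and 54.8 in members. Il1b stood at 2429.9 CPM (2217 to 2658) against 4406 and Lyz2 at 2429.9 against 5783. H2-Eb1 stood at 12322 CPM against 14441, Csf2rb at 741 against 806 and Ccr7 at 218 (158 to 294) against 271.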

How the results depend on the processing

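Of 147 alternative values of the member share and the gene counts, 112 stayed within their limits and 35 moved. The limits were the counting interval for the share and, for gene counts, a fixed fold range around the main count. That range is no counting interval, and 636 genes higher than in C1q-high cells in place of 441 lay within it. A like count need not hold the same genes. Under the thinned rule, 23 of the 51 genes higher than in Cd207 cells and 16 of the 52 lower were called again, and 63 of 120 and 248 of 392 against Ly6c2 Plac8 cells. Of the genes lower than in Cd207 cells, 33 were called again by the mean over cells, and of those higher, 32 without members with Ccr7. The 203 log2 ratios that were followed are each of a gene against a class, so a gene can occur more than once. Of their 3451 alternative values, 17 changed direction and 685 left their interval. No paired analysis was possible because each age had 1 library and no test was made. With 1 library per age, counting error is the sole error given. Where no cause is named below, the cause was not tested.

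The member share was 13.8% with a mitochondrial limit of 5%, 10.4% with at least 3 panel genes, 13.6% under the rule applied to thinned cells and 9.38% without members with Ccr7. It was 13.6% in the library with suffix 1 alone and 8.85% in that with suffix 2. A call from 1 library needs no second library, and with suffix 1 alone 822 genes were higher and 1839 lower than in C1q-high cells, 296 and 456 against Cd207 cells, 535 and 1441 against Ly6c2 Plac8 cells, and 321 and 888 between members with and without Ccr7. With suffix 2 alone, 767 genes were higher than in C1q-high cells, and the pairs were 436 and 531, 382 and 762, and 207 and 797 in the same order. Genes lower than in Cd207 cells numbered 31 with the mitochondrial limit of 5%, 149 under the thinned rule, 14 with a minimum of 50 UMIs, 3631 with none and 31 without members with Ccr7. Against Ly6c2 Plac8 cells, 190 were higher by the mean over cells, 230 were higher and 258 lower under median-of-ratios scaling, and 209 and 3360 were lower with a minimum of 50 UMIs and with none. Between members with and without Ccr7, 123 were lower with the mitochondrial limit of 5%, 51 were higher and 105 lower with 50 UMIs, and 157 were higher with no minimum. The UMI minimum sets how many genes are tested. With no minimum, counts under 3 were set to 3 in both classes. Genes nearly absent from both then counted as lower in members, whose UMI total was larger than that of Cd207 or Ly6c2 Plac8 cells. The counts of 3631 and 3360 are therefore not read as differences between classes.

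Under the thinned rule, which left 28 Cd207 and 66 Ly6c2 Plac8 cells, log2 ratios turned to 1.68 for Ccr1, 1.85 for Fcgr1, 2.69 for Ly6a and 2.48 for Maf against Cd207 cells and to 0.80 for Igkc against Ly6c2 Plac8 cells. Without the 5 collagen-bearing members they turned to -0.73 for Col1a1, -1.01 for Col1a2, -0.78 for Col3a1 and -0.56 for Dcn against C1q-high cells, and to -0.81 for Col1a1 and -1.47 for Col1a2 against Ly6c2 Plac8 cells. Without members with Ccr7, they turned to -1.19 for Cacnb3, -4.69 for Ccr7 by construction, -0.91 for H2-Eb2 and -0.45 for Socs2 against C1q-high cells, and to -0.45 for Ccl5 and -1.51 for Il4i1 against Cd207 cells.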
